A study of Mus musculus with 20 samples.

Results

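The genes described here are 8 receptors of the tumour necrosis factor (TNF) receptor superfamily: Tnfrsf1a, Tnfrsf1b, Tnfrsf4, Tnfrsf9, Tnfrsf18, Tnfrsf25, Cd27 and Fas. They were taken by symbol from the 23992 gene symbols of the count tables, and each is represented by the transcript with the most reads over the 20 libraries. Regulatory T cells (Tregs) of spleen and lymph node were sorted by GFP from B6-Foxp3EGFP reporter mice, and CD8+ T cells were isolated magnetically from C57BL/6J mice by the methods of the study, whereas the sample labels name the strain C57BL/6N. For both cell types there were 5 groups: unstimulated cells, and cells treated for 90 min or for 4 hr with IL-2 or with its variant IL-2-REH, each at 200 nM. IL-2-REH is a partial agonist, an IL-2 with amino acid changes where the cytokine contacts the common gamma chain. Tregs were sequenced as 3 libraries per group (replicates 1, 2 and 3) and CD8+ T cells as 1, so that no test was run in CD8+ T cells. The labels do not say that libraries of a group came from separate animals, and p-values therefore measure the spread between libraries only. The ages of the mice are not given in the sources used here.

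Receptors of this superfamily bind trimeric ligands of the TNF family and have no enzyme activity of their own. Most of the T cell costimulators among them, such as OX40 (Tnfrsf4), 4-1BB (Tnfrsf9), GITR (Tnfrsf18), TNFR2 (Tnfrsf1b) and CD27, recruit TRAF adaptors that lead to NF-kB. TNFR1 (Tnfrsf1a), DR3 (Tnfrsf25) and Fas carry a death domain in the cytoplasmic tail, which can assemble complexes with caspase-8 and, in TNFR1 and DR3, also signals to NF-kB. Tregs are known for high GITR, OX40 and TNFR2. IL-2 signals mainly through the transcription factor STAT5 in these cells.

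Reads on genes ranged from 20201392 to 63903764 per Treg library (median 42756570) and from 38201667 to 45189835 per CD8+ library. The summed RPKM of the Treg markers Foxp3, Il2ra, Ctla4, Ikzf2 and Cd4 was between 505 and 1061 in Treg libraries and between 12.6 and 28.3 in CD8+ libraries, and the sum of Cd8a and Cd8b1 was between 281.9 and 727.7 in CD8+ libraries and between 4.46 and 12.7 in Treg libraries. RPKM is the number of reads on a transcript's exons, divided by the exon length and by the depth of the library. Unstimulated Treg replicate 1 stood apart from the other two unstimulated libraries. In it, 7.58% of the 15009 tested genes lay more than 2-fold beyond both others, against 0.386% for replicate 2 and 0.5% for replicate 3, and Tnfrsf1b, Tnfrsf4, Tnfrsf9 and Tnfrsf18 were 4 of the genes that lay above. This library is part of all 4 comparisons with unstimulated Tregs, so each of these is given with and without replicate 1. Leaving it out raises the fold changes of genes that lay above in it, these 4 receptors among them. Among fits that left out libraries, only those without this library called any of the 4 against unstimulated Tregs. Such calls are therefore not separate evidence of a change. Markers of other cell types also moved with the replicate number. The summed RPKM of Csf1r, Lyz2 and Cd68, markers of macrophages or monocytes, was 7.12 to 12.6 in libraries of replicate 1, 24.4 to 50.8 in those of replicate 2 and 18.0 to 45.4 in those of replicate 3, and that of the neutrophil markers S100a8 and S100a9 was 0.069 to 1.44, 1.04 to 3.40 and 45.9 to 200.8. The erythroid sum was 131.7 to 230.1 in replicate 3 and 5.31 to 20.5 in the others, and the B cell sum was 7.16 to 16.8 against 1.76 to 7.78. Macrophage markers also moved with the groups. Their sum in each unstimulated library was above that of the 4 libraries with cytokine of the same number, at 12.6 against 7.12 to 12.2 in replicate 1, 50.8 against 24.4 to 31.3 in replicate 2 and 45.4 against 18.0 to 30.2 in replicate 3. The sum of the T cell markers Cd3e and Cd3d was above in the same way, at 263.7 against 205.3 to 262.2 in replicate 1. It was 343.1 against 201.5 to 236.4 in replicate 2 and 402.9 against 166.7 to 270.4 in replicate 3. In CD8+ libraries, the macrophage sum was 27.0 unstimulated and 12.8 to 16.9 with cytokine, and the T cell sum 452.3 and 268.3 to 306.9. The other marker lists were not above in all 3 replicates. The part of other cell types in the results below, including each comparison with unstimulated Tregs, was not tested.

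Of the 8 genes, 5 lie on chromosome 4 of GRCm38. Tnfrsf1b (NM_011610) spans 145212368 to 145246870 on the minus strand, Tnfrsf9 (NM_001077509) spans 150920155 to 150946104, Tnfrsf25 (NM_033042) spans 152115528 to 152120119, Tnfrsf4 (NM_011659) spans 156013595 to 156016613 and Tnfrsf18 (NM_009400) spans 156026322 to 156028894, the last 4 on the plus strand. Only 9708 bases separate Tnfrsf4 from Tnfrsf18. Tnfrsf1a (NM_011609, plus strand, 125349723 to 125362483) and Cd27 (NM_001033126, minus strand, 125232620 to 125237136) lie on chromosome 6, and Fas (NM_007987, plus strand, 34290647 to 34327775) lies on chromosome 19. Exons of Tnfrsf18 share 414 bases with Gm16008 on the opposite strand, and exons of Cd27 share 129 bases with Mir8113 on the same strand. Since the sources used here do not state whether counting used the strand, reads in these stretches are uncertain.

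Promoter windows of RefSeq (GRCm38.p6, 250 bases before to 50 after an annotated start) were searched on both strands for the palindrome TTCNNNGAA, the core motif of STAT5, for a wider form with 4 bases between TTC and GAA, and for the kappaB motif of NF-kB. The 8 genes have 10 such windows. TTCNNNGAA was found in 6 windows of 6 genes (Tnfrsf1a, Tnfrsf1b, Tnfrsf9, Tnfrsf18, Tnfrsf25 and Fas), and in 8.3% of the 32851 windows of all genes. No window of the 8 genes held the wider form (6.95% of all windows), and 2 held the kappaB motif (8.46% of all windows), those of Tnfrsf9 and Tnfrsf25. A match describes the letters and was not tested as a binding site, and windows of 1 gene or of neighbouring starts can overlap. Printed are windows with a match of Tnfrsf18, Fas and Tnfrsf9, whose mean RPKM was above the unstimulated mean in every Treg group with cytokine. That of Tnfrsf1b, which also holds a match, is printed for its higher mean at 90 min, although its replicate 1 was lower in every group. The window of Tnfrsf4 is printed because it holds no match. Tnfrsf1a and Tnfrsf25 hold a match as well and are not printed. Whether a match goes with a change in level was not tested. Letters run 5′ to 3′ on the strand of the gene, and capitals mark TTCNNNGAA and, in Tnfrsf9 only, also a stretch of 2 overlapping kappaB matches nearer to the start. The match to TTCNNNGAA begins 99 bases before the start in Tnfrsf18, 93 in Fas, 136 in Tnfrsf9 and 181 in Tnfrsf1b.
Tnfrsf18 (chr4:156026072-156026371, plus strand): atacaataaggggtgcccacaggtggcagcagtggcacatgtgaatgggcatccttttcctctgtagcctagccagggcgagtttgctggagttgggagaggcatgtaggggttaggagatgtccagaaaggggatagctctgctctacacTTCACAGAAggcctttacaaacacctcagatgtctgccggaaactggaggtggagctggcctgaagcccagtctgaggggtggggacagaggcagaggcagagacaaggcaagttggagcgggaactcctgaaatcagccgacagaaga
Fas (chr19:34290409-34290708, plus strand): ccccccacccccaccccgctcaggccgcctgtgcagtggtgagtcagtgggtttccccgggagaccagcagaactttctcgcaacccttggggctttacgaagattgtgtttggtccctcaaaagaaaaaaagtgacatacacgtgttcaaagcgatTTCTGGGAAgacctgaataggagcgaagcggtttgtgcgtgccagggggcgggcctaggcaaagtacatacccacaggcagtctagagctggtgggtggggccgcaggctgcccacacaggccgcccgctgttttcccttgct
Tnfrsf9 (chr4:150927749-150928048, plus strand): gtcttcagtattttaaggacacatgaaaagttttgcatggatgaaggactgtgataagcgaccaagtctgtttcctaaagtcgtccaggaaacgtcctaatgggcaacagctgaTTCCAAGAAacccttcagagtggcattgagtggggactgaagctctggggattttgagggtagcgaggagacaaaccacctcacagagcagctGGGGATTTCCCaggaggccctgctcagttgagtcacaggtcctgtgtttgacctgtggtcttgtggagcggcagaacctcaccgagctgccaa
Tnfrsf1b (chr4:145246821-145247120, minus strand): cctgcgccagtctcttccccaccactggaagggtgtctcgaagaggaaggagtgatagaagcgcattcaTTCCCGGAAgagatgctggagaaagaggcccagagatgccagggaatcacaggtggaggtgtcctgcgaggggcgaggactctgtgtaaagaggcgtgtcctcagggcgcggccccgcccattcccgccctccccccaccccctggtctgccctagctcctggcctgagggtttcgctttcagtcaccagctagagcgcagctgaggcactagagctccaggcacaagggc
Tnfrsf4 (chr4:156013445-156013744, plus strand): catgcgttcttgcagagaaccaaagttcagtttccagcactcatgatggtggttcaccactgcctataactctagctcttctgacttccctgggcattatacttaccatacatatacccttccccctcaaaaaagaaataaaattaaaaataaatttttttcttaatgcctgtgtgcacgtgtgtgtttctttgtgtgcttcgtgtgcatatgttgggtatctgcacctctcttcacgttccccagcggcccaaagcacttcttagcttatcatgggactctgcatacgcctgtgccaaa
The start of the printed window is that of the transcript whose values are given in Tnfrsf18 and Tnfrsf1b, and lies downstream of it by 12 bases in Fas, 100 bases in Tnfrsf4 and 7844 bases in Tnfrsf9. The other window of Tnfrsf9, at the start of the transcript whose values are given, holds no match to the motifs searched. In Tnfrsf25, the matches lie only in the window whose start is 815 bases downstream of that of its transcript.

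In unstimulated Tregs, OX40, GITR, CD27, 4-1BB and TNFR2 were abundant and the 3 death domain receptors were low. By mean RPKM, Tnfrsf4 led with 179.8 ± 136.5 (SD, n = 3 libraries, as for all Treg means below), followed by Tnfrsf18 with 163.9 ± 96.8, Cd27 with 154.3 ± 44.6, Tnfrsf9 with 125.2 ± 126.6 and Tnfrsf1b with 87.1 ± 57.4. Neighbours in this order overlapped in range. A gap separated Tnfrsf1b (lowest library 46.6) from Tnfrsf25 (22.4 ± 6.996, highest library 30.4), Fas (18.4 ± 7.47) and Tnfrsf1a (11.4 ± 1.90), whose ranges overlapped in turn. After IL-2 for 4 hr, Tnfrsf9 (439.5 ± 48.5) and Tnfrsf18 (419.8 ± 19.6) had the highest means, with overlapping ranges. The 8 genes together summed to 438.8 to 1272.6 RPKM in unstimulated Treg libraries and to 1154.3 to 2031.5 RPKM after IL-2 for 90 min, of which the upper unstimulated value belongs to replicate 1.

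**Figure D1:**
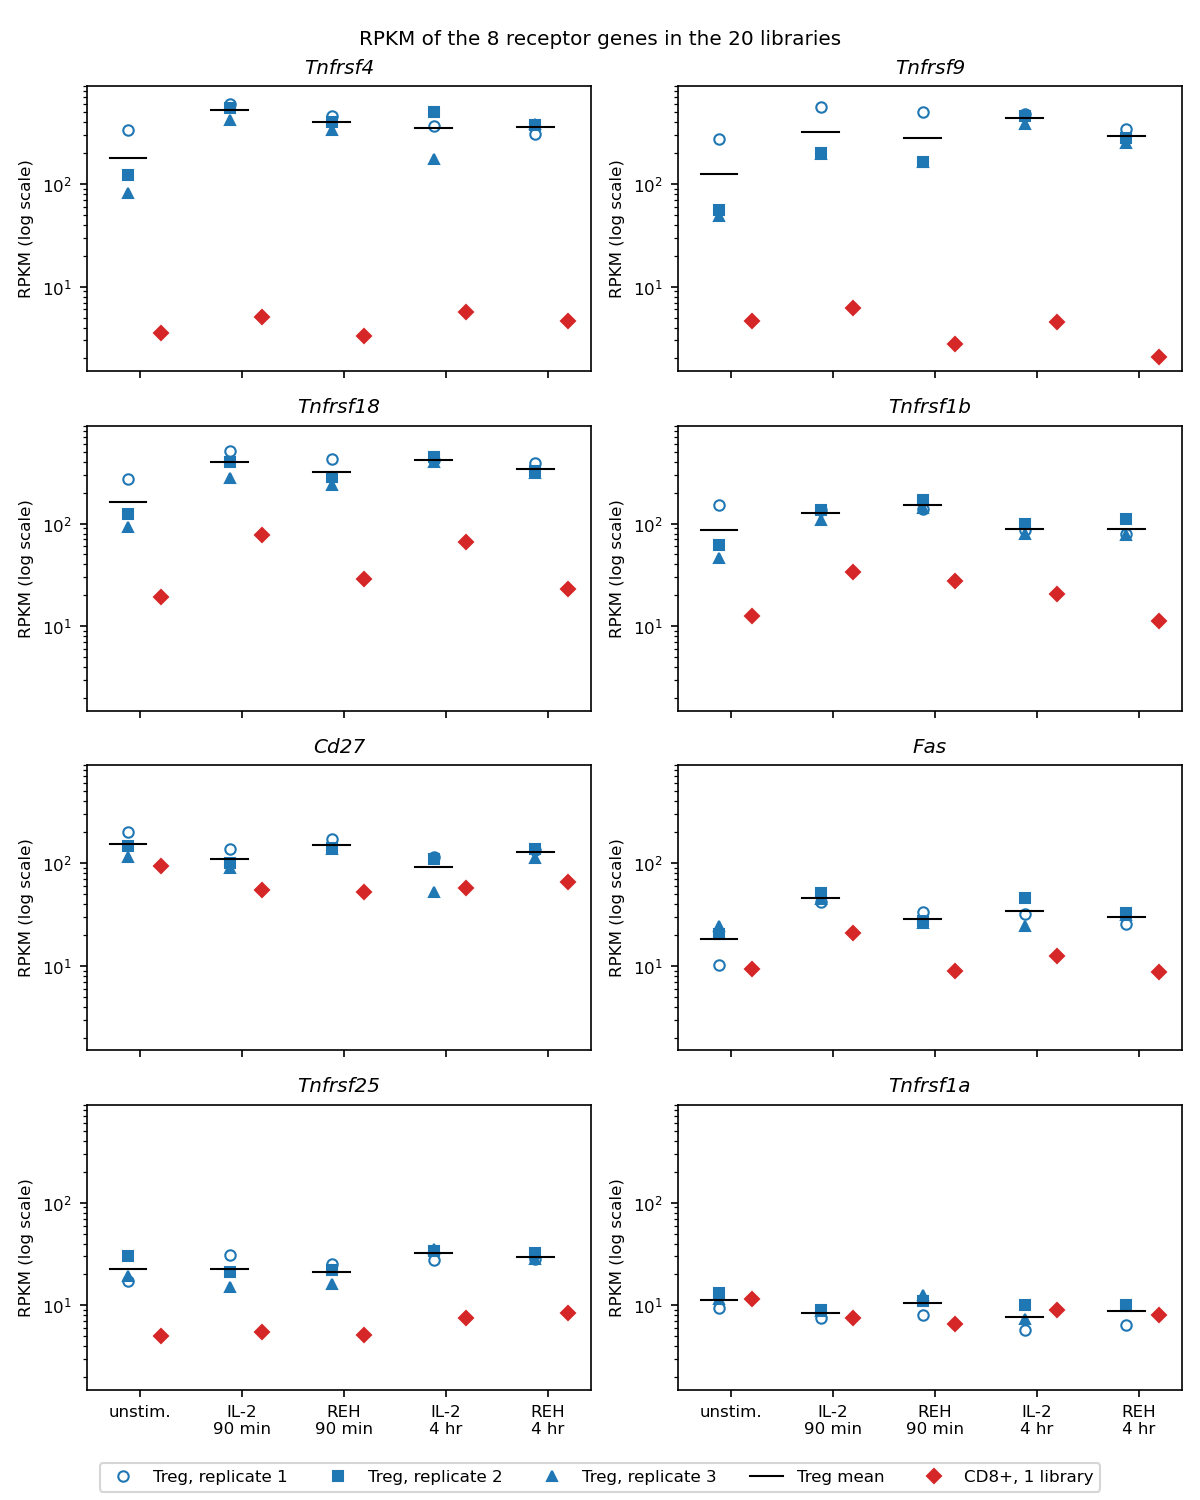
RPKM of the 8 receptor genes in each of the 20 libraries on a log axis, with 1 panel per gene and the 5 conditions along the x axis (REH is IL-2-REH). Open circles, squares and triangles are Treg replicates 1, 2 and 3, black lines their means, and diamonds the single CD8+ libraries. Unstimulated replicate 1 lies above the other two unstimulated Treg libraries in Tnfrsf1b, Tnfrsf4, Tnfrsf9 and Tnfrsf18, and Tnfrsf4 and Tnfrsf9 lie at 2.05 to 6.15 RPKM in all CD8+ libraries.

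GITR, a costimulator of Tregs whose ligand is Tnfsf18, was higher in every library with cytokine at 4 hr than in any unstimulated library. The RPKM of Tnfrsf18 was 274.2, 124.4 and 93.0 in unstimulated replicates 1, 2 and 3. It was 512.1, 394.4 and 278.5 after IL-2 for 90 min and 417.1, 440.6 and 401.6 after IL-2 for 4 hr. With IL-2-REH, it was 423.8, 282.1 and 238.6 at 90 min and 392.6, 325.8 and 307.4 at 4 hr. Both IL-2 groups lay wholly above the unstimulated group, and of the IL-2-REH groups only that of 90 min overlapped it, through unstimulated replicate 1. In edgeR's quasi-likelihood test with Benjamini-Hochberg adjustment over 15009 genes, the log2 fold change against unstimulated Tregs was 1.33 (SE 0.36, adjusted p = 0.12) for IL-2 at 90 min and 1.37 (SE 0.36, adjusted p = 0.0635) at 4 hr, and neither passed 0.05. With the replicate number as a block, which the data support as a pairing, Tnfrsf18 passed for IL-2 at 90 min (1.45, adjusted p = 0.0186), for IL-2 at 4 hr (adjusted p = 0.0074) and for IL-2-REH at 4 hr (1.13, adjusted p = 0.0473). Without replicate 1, it passed in all 4 comparisons with unstimulated Tregs, with log2 fold changes between 1.56 and 2.09 (adjusted p between 0.00084 and 0.0028).

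OX40, the receptor of Tnfsf4, prolongs T cell responses and had the highest mean RPKM of the 8 receptors in both Treg groups at 90 min. Tnfrsf4 stood at 335.5, 122.6 and 81.1 RPKM in unstimulated replicates 1 to 3, at 604.9, 544.0 and 416.0 after IL-2 for 90 min, and at 457.5, 400.3 and 338.3 after IL-2-REH for 90 min. Neither 90 min group overlapped the unstimulated group. In IL-2-REH replicate 1 at 90 min, Tnfrsf9 (504.4) lay above Tnfrsf4. At 4 hr, the values were 368.2, 501.3 and 173.8 with IL-2 and 309.2, 379.1 and 381.0 with IL-2-REH, and both groups overlapped unstimulated replicate 1. IL-2 replicate 3 at 4 hr, the library with the fewest reads, was the lowest of the 12 libraries with cytokine. The log2 fold change for IL-2 at 90 min was 1.60 (SE 0.46, 95% interval 0.61 to 2.58, edgeR adjusted p = 0.148). It was 2.55 (adjusted p = 0.0036) without replicate 1, where Tnfrsf4 also passed for IL-2 at 4 hr (1.82, adjusted p = 0.0153) and for IL-2-REH at 90 min (2.16, adjusted p = 0.0067) and 4 hr (1.99, adjusted p = 0.0127).

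4-1BB, a costimulator best known on activated CD8+ T cells and on Tregs, had the widest spread between unstimulated libraries relative to its mean. RPKM of Tnfrsf9 was 271.3, 55.7 and 48.7 in unstimulated replicates 1 to 3, so that replicate 1 held over 4 times the level of the other two. After IL-2, it was 560.4, 202.0 and 193.9 at 90 min and 476.6, 457.2 and 384.6 at 4 hr. After IL-2-REH, it was 504.4, 164.9 and 164.01 at 90 min and 343.2, 282.5 and 251.8 at 4 hr. Replicate 1 was the highest of each group, and only IL-2 at 4 hr cleared all unstimulated libraries. The log2 fold change was 1.78 (SE 0.63, edgeR adjusted p = 0.164) for IL-2 at 4 hr. With the block, it was 2.26 (adjusted p = 0.0058), the one comparison with unstimulated Tregs in which Tnfrsf9 passed in that fit. Without replicate 1, Tnfrsf9 rose by 2.23 and 3.14 on the log2 scale with IL-2 at 90 min and 4 hr (adjusted p = 0.00037 and 0.00012) and by 1.95 and 2.43 with IL-2-REH (adjusted p = 0.00051 and 0.00039).

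TNFR2, the receptor through which TNF acts on Tregs, was highest at 90 min. Tnfrsf1b was at 152.8, 61.8 and 46.6 RPKM in unstimulated replicates 1 to 3. At 90 min it was at 135.7, 134.6 and 107.4 with IL-2 and at 140.2, 169.3 and 141.6 with IL-2-REH, and at 4 hr at 86.0, 98.5 and 78.4 with IL-2 and at 79.9, 110.4 and 77.2 with IL-2-REH. Replicates 2 and 3 were above their unstimulated libraries in every group, whereas replicate 1 was below its own in every group. Over all libraries, the log2 fold change for IL-2 was 0.61 (edgeR adjusted p = 0.494) at 90 min and 0.01 (adjusted p = 0.99) at 4 hr. Without replicate 1, Tnfrsf1b passed in all 4 comparisons, at 1.47 and 1.81 for IL-2 and IL-2-REH at 90 min (adjusted p = 0.0027 and 0.0012) and at 0.84 and 0.86 at 4 hr (adjusted p = 0.0278 and 0.0292).

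CD27, a costimulator of resting T cells that binds Cd70, was the receptor of the TRAF-binding group whose mean level was below that of unstimulated Tregs with IL-2. Its mean was 154.3 ± 44.6 RPKM in unstimulated Tregs, 109.5 ± 25.0 after IL-2 for 90 min and 92.4 ± 34.9 at 4 hr, against 150.1 ± 20.4 and 128.7 ± 13.5 after IL-2-REH. The IL-2 groups overlapped the unstimulated group, which reached down to 113.7. No comparison of Cd27 passed with edgeR or in any of its 18 alternatives, and the log2 change for IL-2 at 4 hr was -0.71 (95% interval -1.30 to -0.13, edgeR adjusted p = 0.193).

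Fas, the receptor of Fasl that triggers apoptosis of activated T cells, was the only receptor of the 8 to pass in edgeR's fit of all 15 Treg libraries without a block, and only for IL-2 at 90 min. On the same libraries, DESeq2 also called Tnfrsf4 (adjusted p = 0.0137) and Tnfrsf18 (adjusted p = 0.0111) for IL-2 at 90 min, and Tnfrsf18 (adjusted p = 0.0041), Tnfrsf25 (adjusted p = 0.0408) and Fas at 4 hr, and limma called Tnfrsf18 at 4 hr (adjusted p = 0.0261). Its RPKM was 10.1, 20.5 and 24.6 in unstimulated replicates 1 to 3 and 42.2, 50.7 and 44.4 after IL-2 for 90 min, without overlap. It was 33.2, 27.6 and 25.9 after IL-2-REH for 90 min, 32.2, 46.3 and 24.3 after IL-2 for 4 hr and 25.8, 32.8 and 30.98 after IL-2-REH for 4 hr. Unlike the TRAF-binding receptors, Fas was lowest in unstimulated replicate 1. For IL-2 at 90 min it rose by 1.49 on the log2 scale (SE 0.26, 95% interval 0.93 to 2.04, edgeR adjusted p = 0.0132), and by 1.37 (adjusted p = 0.0077) without replicate 1. Over 18 alternative fits, the log2 fold change stayed between 1.24 and 1.79 and passed in 12 (adjusted p between 7e-06 and 0.788). It did not pass without unstimulated replicate 2 (adjusted p = 0.0882), without IL-2 replicate 2 (0.0678) or 3 (0.0751) at 90 min, without replicate 2 (0.788) or 3 (0.148) of every group, or in a fit of the 2 groups alone (0.145). For IL-2 at 4 hr, the change was 0.96 (adjusted p = 0.068) and passed with the block (adjusted p = 0.0224) and with DESeq2 (adjusted p = 0.0088).

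TNFR1 and DR3, the other two death domain receptors, stayed low in all groups. Tnfrsf1a had group means between 7.77 ± 2.16 and 11.4 ± 1.90 RPKM, and after IL-2 for 90 min its 3 libraries (7.58 to 8.96) lay below the unstimulated ones (9.40 to 13.2). The log2 change was -0.26 (edgeR adjusted p = 0.70). Tnfrsf25, the receptor of Tnfsf15, was at 22.4 ± 6.996 RPKM in unstimulated Tregs, and at 32.3 ± 4.00 after IL-2 and 29.6 ± 2.36 after IL-2-REH for 4 hr, and these groups overlapped. Its change for IL-2 at 4 hr was 0.63 (SE 0.20, adjusted p = 0.118), which passed with DESeq2 and in no other fit.

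**Figure D2:**
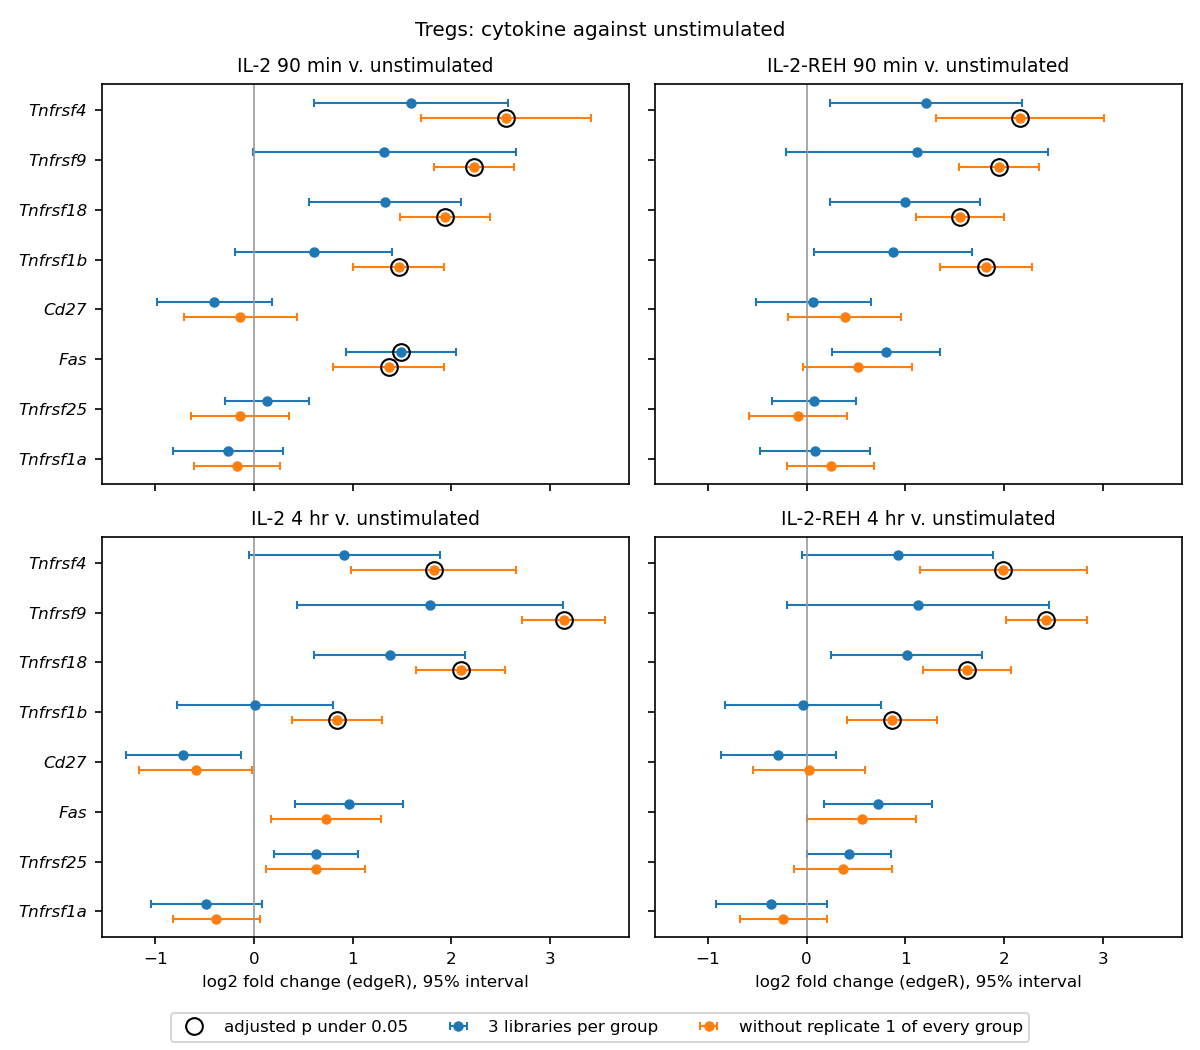
Log2 fold changes of the 8 receptor genes against unstimulated Tregs for IL-2 and IL-2-REH at 90 min and 4 hr, with 95% intervals, from edgeR fits of all 15 libraries (blue) and without replicate 1 (orange), where black rings mark an adjusted p under 0.05. In the fit of all libraries Fas with IL-2 at 90 min (1.49) passed, and without replicate 1 the values of Tnfrsf4, Tnfrsf9, Tnfrsf18 and Tnfrsf1b are higher, reaching 3.14 for Tnfrsf9 with IL-2 at 4 hr.

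Counted over the 8 receptors, 1 passed an adjusted p of 0.05 for IL-2 at 90 min, against 0.853% of all genes tested, and 3 had an unadjusted p under 0.05 (13.8% of all genes). None passed for IL-2 at 4 hr (2.27% of all genes), IL-2-REH at 90 min (0.0933%) or IL-2-REH at 4 hr (0.313%) with edgeR. The counts at an unadjusted p under 0.05 were 5 (17.7% of all genes), 4 (11.4%) and 3 (13.3%) in these last comparisons. DESeq2 called 3 receptors for IL-2 at 90 min (3.68% of all genes), 3 for IL-2 at 4 hr (6.64%) and 0 in either IL-2-REH comparison, and limma called 1 for IL-2 at 4 hr (2.54%) and 0 in the IL-2-REH comparisons. With the block, edgeR called 2 receptors for IL-2 at 90 min (1.83% of all genes), 3 for IL-2 at 4 hr (6.92%), 0 for IL-2-REH at 90 min (0.213%, with 5 at an unadjusted p under 0.05, against 16.3% of all genes) and 1 at 4 hr (3.03%). Without replicate 1, it called 5 (17.3%), 4 (13.4%), 4 (15.7%) and 4 (10.7%) in the order IL-2 90 min, IL-2 4 hr, IL-2-REH 90 min and IL-2-REH 4 hr, and each of these was higher than in unstimulated Tregs. Leaving out unstimulated replicate 1 alone gave the counts 5 (12.9% of all genes), 4 (8.87%), 4 (12.1%) and 4 (6.93%). These comparisons share the unstimulated libraries and are not independent of each other. The median log2 fold change of the 8 receptors was 0.96, 0.77, 0.84 and 0.57 in the same order, and that of all genes tested was between -0.06 and 0.01.

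By range alone, receptors whose libraries did not overlap with the unstimulated ones were Tnfrsf4, Tnfrsf18 and Fas above and Tnfrsf1a below for IL-2 at 90 min (12.7% of all genes did not overlap), Tnfrsf9 and Tnfrsf18 for IL-2 at 4 hr (14.7%), Tnfrsf4 and Fas for IL-2-REH at 90 min (9.97%) and Tnfrsf18 and Fas for IL-2-REH at 4 hr (13.7%). In a test of any difference among the 5 Treg groups, edgeR called 0 of the 8 (1.27% of all genes), with 4 at an unadjusted p under 0.05 (19% of all genes), 2 called by DESeq2 (12.9%) and 0 by limma. With the block, it called Fas, Tnfrsf9 and Tnfrsf18 (6.12% of all genes), and without replicate 1 it called 5 (20.5%).

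IL-2-REH and IL-2 were compared at the same dose at each time, which gave 2 comparisons per receptor. At 90 min, Fas was lower with IL-2-REH in every library (25.9 to 33.2 RPKM against 42.2 to 50.7), and Tnfrsf1b was higher in every library (140.2 to 169.3 RPKM against 107.4 to 135.7). Such a lack of overlap was found in 5.46% of all genes. The log2 difference of Fas was -0.69 (95% interval -1.23 to -0.14, unadjusted p = 0.017 and adjusted p = 1 from edgeR), and that of Tnfrsf1b was 0.27 (-0.53 to 1.06). At 4 hr, Tnfrsf9 was at 251.8 to 343.2 RPKM with IL-2-REH and at 384.6 to 476.6 with IL-2, and Tnfrsf18 at 307.4 to 392.6 against 401.6 to 440.6, again without overlap (7.79% of all genes). Their log2 differences were -0.65 (95% interval -1.97 to 0.66) and -0.36 (-1.12 to 0.39).

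None of the 8 receptors passed between the cytokines at 90 min (0.0133% of all genes) or at 4 hr (0.0267%) with edgeR, DESeq2 or limma, and 1 (Fas, against 0.993% of all genes) and 0 (3.72%) had an unadjusted p under 0.05 with edgeR. At 90 min, intervals ran from -1.51 to 1.11 for Tnfrsf9, from -1.35 to 0.57 for Tnfrsf4, from -1.08 to 0.43 for Tnfrsf18 and from -0.12 to 1.05 for Cd27. In this fit without a block, the interval of Tnfrsf9 includes 2-fold differences in both directions. With the block, its interval was narrower, from -1.05 to 0.58 at 90 min and from -1.50 to 0.14 at 4 hr. The interval of Cd27 at 90 min with the block was 0.0008 to 0.955 (log2 difference 0.48, edgeR unadjusted p = 0.0497). In that fit, 2 receptors, Cd27 and Fas, had an unadjusted p under 0.05 at 90 min (263 of 15009 genes) and 0 at 4 hr (931 of 15009). None passed after adjustment. For Tnfrsf4 at 4 hr, the difference was 0.01 (-0.95 to 0.97), and it was -0.28 without IL-2 replicate 3. In single pairs of the same number, the log2 ratio of RPKM + 1 at 4 hr was 1.13 for Tnfrsf4 and 1.10 for Cd27 in replicate 3, against -0.25 and -0.40 for Tnfrsf4 and 0.22 and 0.33 for Cd27 in replicates 1 and 2. The change of the cytokine difference from 90 min to 4 hr passed for 0 of the 8 with edgeR (0% of all genes), with 0 at an unadjusted p under 0.05 (0.313% of all genes) and 0 with DESeq2 and limma.

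**Figure D3:**
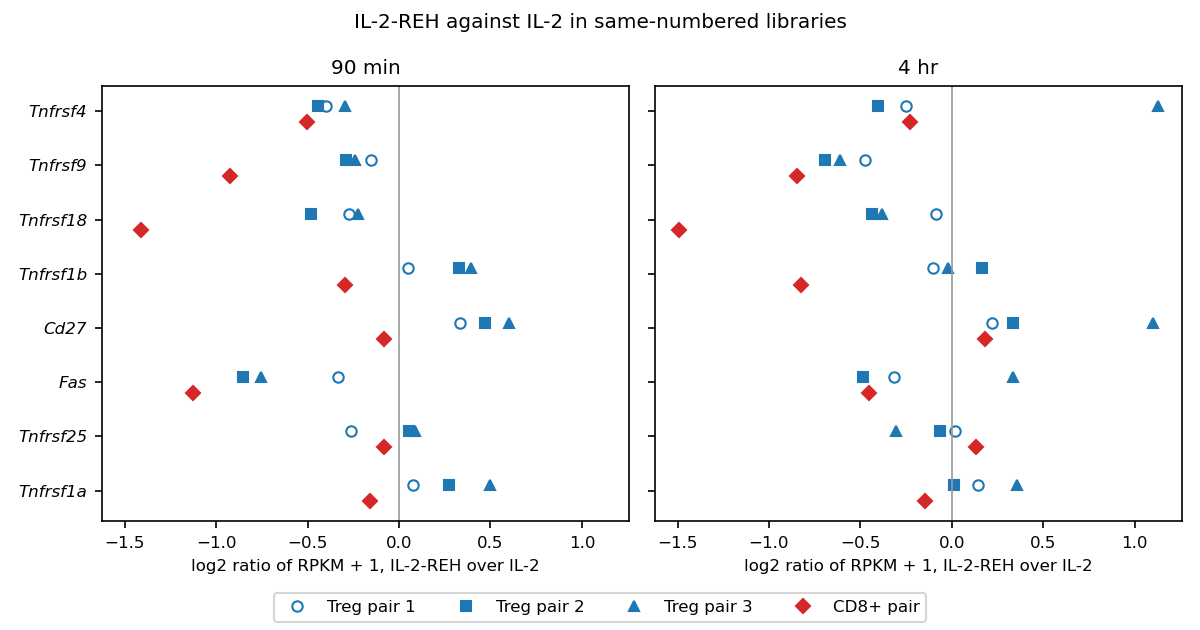
Log2 ratio of RPKM + 1 of IL-2-REH over IL-2 on the x axis at 90 min and 4 hr for the 8 receptor genes, with 1 point for each of the 3 same-numbered Treg pairs and a diamond for the CD8+ pair. At 90 min, Fas, Tnfrsf4, Tnfrsf9 and Tnfrsf18 lie below 0 in all Treg pairs and Tnfrsf1b, Cd27 and Tnfrsf1a lie above 0. At 4 hr, the pair of replicate 3 lies at 1.13 for Tnfrsf4, away from the other pairs.

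Between 90 min and 4 hr, no receptor passed with IL-2 or with IL-2-REH in the fit of all libraries (edgeR, 0% of all genes each), with 1 at an unadjusted p under 0.05 in each (Tnfrsf25 with IL-2, 17% of all genes, and Tnfrsf1b with IL-2-REH, 14.6%) and 0 with DESeq2 and limma. Tnfrsf1b was lower at 4 hr than at 90 min in every library with either cytokine, and Tnfrsf25 with IL-2-REH was higher at 4 hr in every library, where 17.1% (IL-2) and 19.1% (IL-2-REH) of all genes did not overlap. Without replicate 1, Tnfrsf9 with IL-2 was higher at 4 hr by 0.91 on the log2 scale (adjusted p = 0.0313, 4.32% of all genes called) and Tnfrsf1b with IL-2-REH fell by 0.95 (adjusted p = 0.0416, 3.96% of all genes called). No such call was made when a single library was left out.

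Among the genes that act with these receptors, the adaptor Traf6, a ubiquitin ligase, and the kinase Ripk1, which binds TNFR1 complexes, rose with IL-2. Traf6 went from 14.8 ± 1.37 RPKM in unstimulated Tregs to 35.0 ± 2.74 after IL-2 for 90 min (log2 fold change 1.40, SE 0.22, edgeR adjusted p = 0.0059) and to 27.3 ± 6.49 at 4 hr (0.94, adjusted p = 0.0367). Ripk1 went from 14.4 ± 0.114 to 25.8 ± 3.59 at 90 min (0.98, adjusted p = 0.0158). They were the 2 of 14 adaptor genes that passed for IL-2 at 90 min, against 0.853% of all genes. Traf6 was the 1 that passed at 4 hr (2.27% of all genes), where it did not pass without replicate 1 (0.89, edgeR adjusted p = 0.0539). No adaptor gene passed with IL-2-REH in edgeR's fit of all libraries, where 0.0933% of all genes passed at 90 min and 0.313% at 4 hr. In the 4 comparisons with unstimulated Tregs in the same fit, none of the 7 tested ligand genes of the receptors passed. None of the 16 other tested receptors of the superfamily and 12 NF-kB genes passed either, against the same shares of all genes. With the block, 3 of the 14 adaptor genes passed for IL-2 at 4 hr (6.92% of all genes), namely Traf6, Ripk1 and Casp8 (0.83, edgeR adjusted p = 0.0369). Of the 16 other receptors, 1 passed there, Tnfrsf12a, which was lower (-1.17, adjusted p = 0.0346). For IL-2 at 90 min (1.83% of all genes), 1 passed, Tnfrsf19 (2.77, adjusted p = 0.0094), which lay at only 0.014 to 0.312 RPKM in Treg libraries. For IL-2-REH at 4 hr (3.03%), 1 passed, Tnfrsf8 (-1.66, adjusted p = 0.0295).

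Without replicate 1, where a larger share of all genes was called, each of these lists held calls. Of the 14 adaptor genes, 6 (5 higher and 1 lower) passed for IL-2 at 90 min (17.3% of all genes), 2 (both higher) for IL-2 at 4 hr (13.4%), 6 (5 higher and 1 lower) for IL-2-REH at 90 min (15.7%) and 3 (2 higher and 1 lower) for IL-2-REH at 4 hr (10.7%). Traf1, an adaptor of TNFR2, and the kinase Map3k14 (NIK) were higher in each of the 4, Traf1 by 0.94 to 1.40 on the log2 scale, and with IL-2-REH at 90 min its change was 1.33 (adjusted p = 0.004). Traf5 was the 1 that was lower. In the same order, and against the same shares of all genes, 3, 1, 2 and 1 of 6 tested ligand genes passed, all higher. Tnfsf4, the ligand of OX40, was among them in each, at log2 fold changes of 2.09 to 3.98. Tnfsf4 was low, however, and its unstimulated Treg libraries ranged from 0.17 to 3.34 RPKM (mean 1.29). Over all libraries, its mean at 90 min and 4 hr was 1.92 and 0.93 RPKM after IL-2 and 3.36 and 1.59 after IL-2-REH. Fasl passed at 90 min for IL-2 (2.72) as well as for IL-2-REH (2.27). Of the 16 other receptors, 3, 2, 3 and 3 passed, against 17.3%, 13.4%, 15.7% and 10.7% of all genes. Tnfrsf10b was higher and Relt lower in each.

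Without replicate 1, the NF-kB genes were called higher for 7 and 6 of the 12 after IL-2 for 90 min and 4 hr (17.3% and 13.4% of all genes were called), and for 7 and 5 of them after IL-2-REH (15.7% and 10.7%). Nfkb1 and Nfkb2, the precursors of p50 and p52, were among them in each, at log2 fold changes of 1.41 to 1.67 and 1.55 to 1.76. Rela, Relb and Nfkbib were called in each as well. The median log2 fold change of the 12 genes was 0.89, 0.62, 0.998 and 0.80 in the same order. In the fit of all libraries, where none of them passed, it was 0.49, 0.15, 0.59 and 0.25. Of the ligands, Lta, which binds both TNF receptors, was at 15.04 ± 9.84 RPKM in unstimulated Tregs, 51.0 ± 18.3 after IL-2 and 20.4 ± 9.39 after IL-2-REH for 90 min. Its log2 fold change for IL-2 at 90 min was 1.93 (SE 0.50, edgeR adjusted p = 0.112). Fasl was at 2.87 ± 0.676, 10.6 ± 5.39 and 7.99 ± 3.72 RPKM in the same groups. Cd70, Tnfsf15 and Tnfsf18, the ligands of CD27, DR3 and GITR, had group means of at most 0.229 RPKM in Tregs.

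In CD8+ T cells, where each condition is a single library, the receptor with the widest range across conditions on the log2 scale was GITR. Tnfrsf18 was at 19.3 RPKM unstimulated, at 78.0 and 66.8 after IL-2 for 90 min and 4 hr, and at 28.7 and 23.1 after IL-2-REH. It had the highest level of the 8 with IL-2 at 90 min, whereas Cd27 (93.7) led in unstimulated CD8+ T cells. Against the unstimulated library, the log2 ratio of RPKM + 1 was above 1 for Tnfrsf18 (1.96), Tnfrsf1b (1.37) and Fas (1.10) with IL-2 at 90 min (7.24% of 10021 genes were past 1 in either direction). With IL-2 at 4 hr, it was above 1 for Tnfrsf18 alone (1.74, 4.71% of genes). With IL-2-REH, it was above 1 for Tnfrsf1b at 90 min (1.07, 8.57% of genes) and for none of the 8 at 4 hr (6.11%).

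Side by side, the CD8+ library with IL-2-REH had less Tnfrsf18 than that with IL-2 by 1.41 on the log2 scale at 90 min (log2 ratio -1.41) and by 1.49 at 4 hr (-1.49), and less Fas at 90 min (8.99 against 20.9 RPKM, -1.13). These were the 2 receptors past 1 at 90 min (0.868% of genes) and the 1 at 4 hr (2.23%). At 90 min, Tnfrsf1b was at 34.1 RPKM in the IL-2 library against 27.5 in the IL-2-REH library, and at 4 hr at 20.5 against 11.2. Tnfrsf4 and Tnfrsf9, both prominent in Tregs, stayed between 3.32 and 5.64 and between 2.05 and 6.15 RPKM in CD8+ libraries. Ligand genes moved alongside, and all 3 that were above the filter (Tnf, Lta and Fasl) were past 1 with IL-2 at 90 min. Lta was at 3.21 RPKM unstimulated, at 33.4 and 43.4 with IL-2 and at 4.33 and 4.37 with IL-2-REH, and Tnf was at 2.03, at 14.9 and 20.8 and at 2.55 and 1.77. Cd70 was listed at 0 in all 5 CD8+ libraries. These ratios rest on 1 library per condition and have no replicate check.

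Tregs and CD8+ T cells differed most in OX40 and 4-1BB. A gene was counted as higher in Tregs where, in each of the 5 matched conditions, all 3 Treg libraries lay above the CD8+ library and the difference of the mean log2(RPKM + 1) was over 1. By this rule, 5 of the 8 receptors were higher in Tregs, against 4.42% of 10457 genes, and 0 were lower, against 1.25%. Mean Treg RPKM over CD8+ RPKM was 50.4 to 120-fold for Tnfrsf4, 27.2 to 142.7-fold for Tnfrsf9, 5.07 to 14.8-fold for Tnfrsf18, 3.70 to 7.99-fold for Tnfrsf1b and 3.50 to 4.48-fold for Tnfrsf25. Fas was above CD8+ in all Treg libraries, at 1.99 to 3.42-fold, with a log2 difference of 0.84 in unstimulated cells. Cd27 was 1.61 to 2.90-fold higher and did so without overlap in 4 of 5 conditions. Tnfrsf1a stood at 0.86 to 1.61-fold. In bulk samples, more cells that express a gene and more RNA per cell cannot be told apart, and cell type cannot be told apart from mouse strain and isolation method here.

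**Figure D4:**
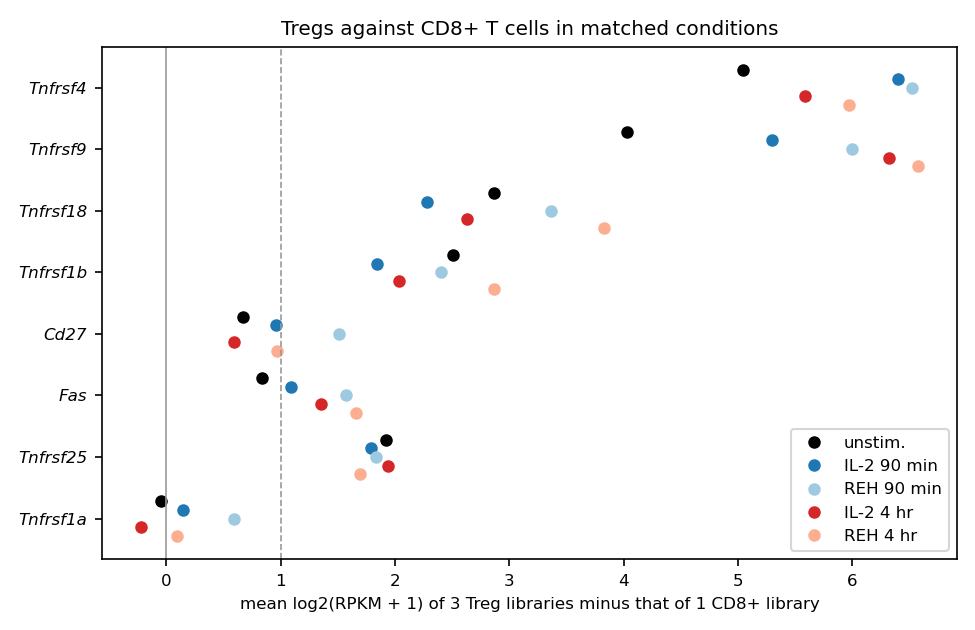
Mean log2(RPKM + 1) of the 3 Treg libraries minus that of the single CD8+ library for the 8 receptor genes, with 1 point for each of the 5 matched conditions (REH is IL-2-REH), a line at 0 and a dashed line at the threshold of 1. Tnfrsf4 and Tnfrsf9 lie between 4.03 and 6.58, Tnfrsf18, Tnfrsf1b and Tnfrsf25 between 1.69 and 3.83, and Tnfrsf1a on both sides of 0.

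For each receptor, the genes with the most similar profile over the 20 libraries were found by the mean absolute difference of centred log2(RPKM + 1). Nearest to Tnfrsf4 were Foxp3 (0.46), Dusp4 (0.47) and Lrrc32 (0.48), where Tnfrsf4 itself deviated from its mean by 2.26 on average. Nearest to Tnfrsf9 were Pdcd1 (0.51), Tnfrsf4 (0.53) and Foxp3 (0.57), and nearest to Tnfrsf18 were Ikzf4 (0.32), Fam132a (0.34) and Fam129a (0.38). Tnfrsf1b lay nearest to Smox (0.23), Tnfrsf25 to Klc3 (0.16) and Fas to Med7 (0.23). The step between the 15 Treg and the 5 CD8+ libraries is part of each of these profiles.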

How the data were processed

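RNA of 15 Treg and 5 CD8+ T cell libraries was sequenced as 50-base single-end reads. The authors mapped them to mm10 with Bowtie2 2.2.6 and TopHat2 2.1.1, kept uniquely mapped reads, and deposited, for 31682 RefSeq transcripts, raw read counts on exons and RPKM, that is, counts scaled to exon length and mapped reads. The submitters' processing notes also name SAMtools 0.1.8, bedtools 2.25.0 and edgeR, without a test or design. Whether counting used the strand is not given in the sources used here.

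Here, each symbol was represented by its transcript with the most reads. Counts of the Treg libraries were tested with edgeR 4.0.16 (R 4.3.3; TMM, filterByExpr, quasi-likelihood) with 1 mean per group over all 15 libraries. The filter left 15009 genes, including all 8 receptors, and p-values were adjusted over these by the Benjamini-Hochberg method. The fit was tested on simulated data that held no replicate effect and no outlying library. That test therefore does not cover these features of the Treg libraries. CD8+ groups have 1 library, so log2 ratios of RPKM + 1 above 1 were counted without a test, over the 10021 genes whose mean RPKM reached 1. The pseudocount of 1 understates changes of low genes.

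Replicate numbers come from the sample labels. Over all 8 pairs of compared groups, same-numbered libraries deviated together from their group means (lowest correlation across genes 0.121), so a fit with the number as a block is given where it changed a call.

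Alternatives were DESeq2 1.42.0, RLE size factors, limma 3.58.1 on log2(RPKM + 1) or with a pseudocount of 0.1, the block, no filter, only the groups compared, the longest transcript, and leaving out single libraries or replicate numbers; for ratios, 0.1 as the pseudocount, a threshold of 2, centring by the median ratio, a minimum of 5 RPKM and no filter. The block without replicate 1 was added after seeing the data. The receptors and the lists of ligands, adaptors, other receptors and NF-kB genes were chosen with earlier results of these data known. All 8 receptors are named, with listed genes that passed in a Treg comparison (at most 4 per comparison and list), ligands and adaptors where their receptor is described, and the 3 most similar profiles. Motifs were searched in RefSeq promoter windows of GRCm38.p6. Python 3.11.15 with numpy 2.4.6, pandas 2.3.3 and matplotlib 3.10.9 was used for tables and figures. A genome sequence and the protein sequences were not used here.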

Additional observations from a re-analysis of the deposited data

Results flagged for a closer look

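For several receptors, the ratios of all 3 same-numbered Treg pairs shared a sign and that of the single CD8+ pair had the opposite sign. These differences between cell types were not tested. With IL-2 at 4 hr against unstimulated cells, the log2 ratio of RPKM + 1 for Tnfrsf9 was -0.0280 in CD8+ T cells and 0.81 to 3.02 in Tregs. With IL-2-REH at 90 min, the CD8+ ratio was -0.0787 for Tnfrsf4 (Tregs 0.45 to 2.05), -0.57 for Tnfrsf9 (0.89 to 1.73) and -0.0330 for Fas (0.07 to 1.62). With IL-2-REH at 4 hr, it was -0.88 for Tnfrsf9 (0.34 to 2.35) and -0.0707 for Fas (0.32 to 1.27). For IL-2-REH relative to IL-2, the CD8+ ratio at 90 min was -0.16 for Tnfrsf1a (0.08 to 0.50), -0.30 for Tnfrsf1b (0.05 to 0.40) and -0.0835 for Cd27 (0.33 to 0.60), and at 4 hr it was -0.15 for Tnfrsf1a (0.01 to 0.35). Of the CD8+ ratios, none was past 1, and those of Tnfrsf9 rest on 2.05 to 6.15 RPKM. Against unstimulated cells, the median CD8+ ratio of all genes was -0.0726 with IL-2 at 4 hr. With IL-2-REH it was -0.122 at 90 min and -0.0243 at 4 hr. Between the cytokines it was -0.0675 at 90 min and 0.0770 at 4 hr. Tnfrsf9 with IL-2 at 4 hr, and Tnfrsf4 and Fas with IL-2-REH at 90 min, lay above these medians. The other CD8+ ratios lay below them.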

How the results depend on the processing

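Counts of the 8 receptors that passed depended on unstimulated replicate 1 and on the tool. For IL-2 at 90 min (1 passed), DESeq2 gave 3, the replicate block 2, a fit of only the groups compared 0, the block without replicate 1 gave 5, and leaving out libraries gave 0 to 5. For IL-2 at 4 hr (0 passed), DESeq2 gave 3, limma 1 with either pseudocount, the block 3, the block without replicate 1 gave 4, and leaving out libraries gave 0 to 4. For IL-2-REH (0 passed at either time), the block gave 1 at 4 hr, the block without replicate 1 gave 4 at 90 min and 4 at 4 hr, and leaving out libraries gave 0 to 4 at each time. From 90 min to 4 hr, leaving out libraries gave 0 to 1 with IL-2 and 0 to 1 with IL-2-REH. For any difference among the groups, DESeq2 gave 2, the block 3, and leaving out libraries 0 to 5. The block changed no other call of the receptors. Between IL-2-REH and IL-2 in Tregs, 0 receptors passed in each alternative run. In CD8+ T cells, a threshold of 2 left 0 receptors with IL-2 at 90 min, 0 with IL-2 at 4 hr, 0 with IL-2-REH at 90 min, and 0 at 90 min and 0 at 4 hr between the cytokines. A pseudocount of 0.1 gave 1 with IL-2-REH at 4 hr and 2 between the cytokines at 4 hr. For Tregs against CD8+ T cells, a threshold of 2 left 3.

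Changes of sign fell on log2 values whose 95% interval included 0 in the fit of all libraries, and their cause was not tested. For Tnfrsf25 with IL-2 at 90 min, limma gave -0.0157 (pseudocount 0.1) and -0.0143 (1), the block without replicate 1 gave -0.137, and leaving out libraries gave -0.140 to 0.293. With IL-2-REH at 90 min, limma gave -0.109 and -0.0998 for Tnfrsf1a (leaving out libraries, -0.156 to 0.316), -0.0566 and -0.0548 for Tnfrsf25 (block without replicate 1, -0.0831, and leaving out libraries, -0.0855 to 0.233), and -0.0075 and -0.0077 for Cd27 (leaving out libraries, -0.140 to 0.426). With IL-2-REH at 4 hr, Tnfrsf1b was 0.209 and 0.205 with limma, 0.0424 with the block, 0.857 with the block without replicate 1 and -0.420 to 0.861 on leaving out libraries, and Cd27 was 0.0245 with the block without replicate 1 and -0.459 to 0.0692 on leaving out libraries. With IL-2 at 4 hr, Tnfrsf1b was -0.292 (without unstimulated replicate 3) to 0.849 (without unstimulated replicate 1). Between the cytokines at 90 min, leaving out libraries gave -0.793 to 0.312 for Tnfrsf9 and -0.210 to 0.108 for Tnfrsf25. At 4 hr, it gave -0.0279 to 0.293 for Tnfrsf1a, -0.168 to 0.0229 for Tnfrsf1b (limma, 0.0118 and 0.0118) and -0.393 to 0.270 for Tnfrsf4 (DESeq2, -0.0052, RLE size factors, -0.0053, and only the groups compared, -0.0203). Fits that leave a group with 1 library were not made, and those without a replicate number rest on 2 per group.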
